A study of Mus musculus with 4 samples.

Results

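The circadian clock genes of the tissue around the femoral artery were examined 48 h after endovascular wire injury or sham operation. They were chosen by name as the genes *Arntl*, *Clock*, *Npas2*, *Per1*, *Per2*, *Per3*, *Cry1*, *Nr1d1*, *Dbp* and *Tef*, and all 10 were found among the 12661 genes of the deposited table. The libraries were made from total RNA (480 ng) of the outer tissues of the artery, mainly perivascular adipose tissue (PVAT), of wild type C57BL/6 female mice (C57BL/6J in the study's methods), 11 weeks old by the labels and ovariectomized in both groups. The sham group and the injury group (insertion of a spring wire of 0.38 mm) had 2 libraries each. The hour of the day at which the tissue was collected is not given in the labels or in the methods used here, so that a difference between groups in the hour of collection and an effect of injury cannot be told apart for any gene below.

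The circadian clock is a feedback loop of transcription that runs in most cells with a period of about a day. ARNTL (also called BMAL1) pairs with CLOCK or NPAS2 and activates genes through E-boxes, among them the *Per* and *Cry* genes, whose proteins return to repress ARNTL and its partners. *Nr1d1*, another target, encodes REV-ERBα, which represses *Arntl* through RORE elements, and *Dbp* and *Tef* encode activators that bind D-boxes. In organs of mice kept in light and dark, *Arntl* and *Npas2* peak around dawn, *Nr1d1* in the light phase, then *Dbp*, *Tef* and *Per3*, then *Per1* and *Per2* around dusk and *Cry1* in the dark phase, so that *Arntl* runs opposite to *Nr1d1* and *Dbp*. In fat the clock is known to time lipid metabolism and thermogenesis.

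The elements through which such genes are known to act on each other were looked for first, to show which of these promoters hold them. RefSeq promoters (table of build GRCm38.p6) were held for 9 of the 10 genes, all but *Per2*, and the 250 bases before each start site were searched on both strands for the E-box CACGTG, its variant CACGTT, the D-box TTATGTAA, the RORE cores TAGGTCA and TGGGTCA, and the cyclic AMP element TGACGTCA. A match was found in 5 genes, and in 4 of them it was an E-box or its variant. A gene was counted if any of its promoters held a match. The shares that follow are per promoter, so they cannot be set directly against these counts. The E-box CACGTG was present in 6.02% and CACGTT in 3.85% of all 32851 promoters of that length, and TTATGTAA in 0.819%. The RORE cores (2.23% and 3.24% of all promoters) and the cyclic AMP element (1.55%) had no match in these windows of the 9 genes. A match describes letters only and is not a measured site. The 250 bases around each stretch below were found once on that strand of their chromosome in NCBIM37 (mm9), the build used by the authors. The stretches are given 5′ to 3′ on the strand of the gene with the matches in capitals. *Per3* carried 2 D-boxes, *Cry1* an E-box and a variant, *Nr1d1* a variant next to its start, and *Per1* and *Tef* an E-box each before a start site that lies within the longer annotated gene, in an intron. A further E-box of *Tef* lay in an annotated exon and is not printed.

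Nr1d1, chr11:98636692-98636744, minus strand: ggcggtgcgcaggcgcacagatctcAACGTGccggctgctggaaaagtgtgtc

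Per1, chr11:68912260-68912315, plus strand: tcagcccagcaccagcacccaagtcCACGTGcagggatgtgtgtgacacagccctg

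Tef, chr15:81641681-81641736, plus strand: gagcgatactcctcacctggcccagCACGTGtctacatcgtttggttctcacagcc

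Cry1, chr10:84647829-84647903, minus strand: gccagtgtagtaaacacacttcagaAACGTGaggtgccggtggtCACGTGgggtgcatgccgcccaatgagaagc

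Per3, chr4:150418900-150419004, minus strand: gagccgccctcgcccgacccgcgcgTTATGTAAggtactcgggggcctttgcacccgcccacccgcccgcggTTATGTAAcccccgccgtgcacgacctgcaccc

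Expression is given in the deposited units, signed log-like values that lie around 0 in each library. The base of the scale is not stated, so no fold change is given, levels are not compared between genes, and the read depth behind a value is unknown. Injury was compared with sham by limma over all 12661 genes with Benjamini-Hochberg adjustment, and a gene was called at an adjusted p-value under 0.05. Nothing in the labels says that libraries came from separate animals, so the tests measure the spread between these libraries, which may be technical. In bulk tissue, fewer cells of a type and less RNA per cell cannot be told apart.

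*Nr1d1* and *Dbp* fell after injury, *Arntl* was the highest of the 10 differences without passing the threshold, and the other genes were not called. The 2 genes called were both lower, where 3.67% of all genes were called lower, 3.76% higher and 7.43% in either direction. In 6 of the 10 genes (*Per1*, *Per2*, *Per3*, *Nr1d1*, *Dbp* and *Tef*) both injury libraries lay below both sham libraries, which was so in 30.3% of all genes. In 2 of the 10 (*Arntl* and *Cry1*) both injury libraries lay above, as in 31.6% of all genes, and in *Clock* and *Npas2* the groups overlapped. The median difference of the 10 genes was -0.45, against 0.01 over all genes.

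**Figure D1:**
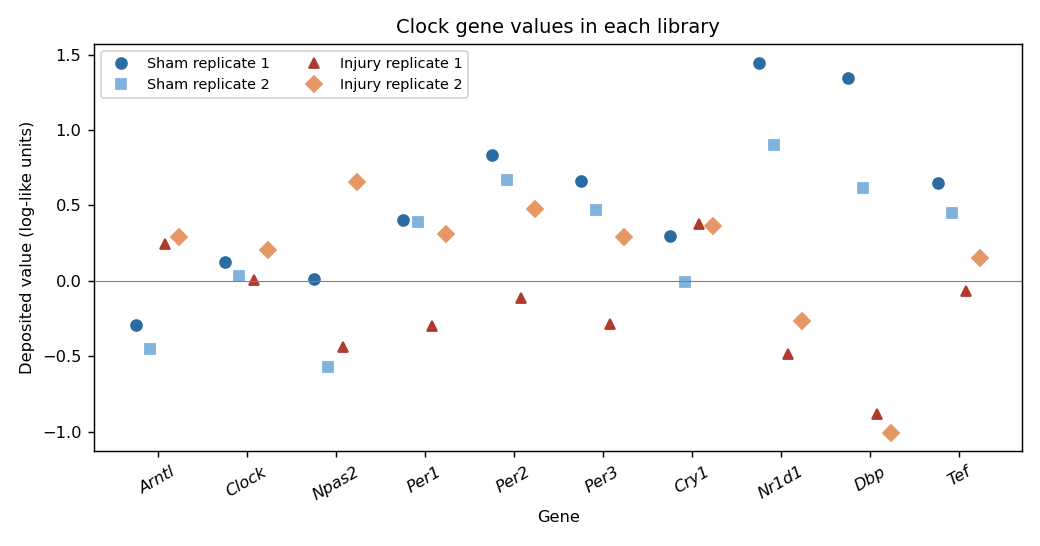
Deposited value (log-like units, vertical axis) of the 10 clock genes (horizontal axis) in each of the 4 libraries. *Nr1d1* and *Dbp* were above 0.6 in both sham libraries and below -0.2 in both injury libraries, while *Arntl* was below 0 after sham operation and above 0 after injury.

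*Nr1d1* lies on the minus strand of chromosome 11 of mm9 from 98629246 to 98636647. Its values were 1.45 and 0.90 after sham operation and -0.49 and -0.26 after injury. Both sham libraries were high and both injury libraries low, on opposite sides of 0. The means were 1.17 ± 0.39 (SD, n = 2) after sham operation and -0.38 ± 0.16 (SD, n = 2) after injury. Injury differed from sham by -1.55 (standard error 0.22, limma adjusted p = 0.0291), the 101st lowest of all genes. *Nr1d1* kept its direction without each library in turn, at -1.82 to -1.28. Its call was lost without sham replicate 1 (limma adjusted p = 0.176), without sham replicate 2 (0.113) and without injury replicate 1 (0.0637), fits that leave 1 residual degree of freedom and called 0, 1 and 284 of all genes instead of 941. Without either sham library, losses are therefore not particular to a gene named here.

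*Dbp*, on the plus strand of chromosome 7 from 52960458 to 52965525, had the lowest difference of the 10 genes. Its values were 1.34 and 0.62 after sham operation and -0.88 and -1.01 after injury. The sham libraries differed from each other by 0.72, and the injury libraries by only 0.12, well below both. The means were 0.98 ± 0.51 (SD, n = 2) and -0.95 ± 0.09 (SD, n = 2). It differed between the groups by -1.93 (standard error 0.26, limma adjusted p = 0.0291), the 41st lowest of all genes. Without each library in turn it was -2.29 to -1.56. The call of *Dbp* was lost without sham replicate 1 (limma adjusted p = 0.176), without sham replicate 2 (0.113) and without injury replicate 1 (0.0532).

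*Nr1d1* and *Dbp* each share exon sequence with a gene on the opposite strand. The library kit keeps the strand, but whether the counting used it is not stated. The neighbour of *Nr1d1* is the thyroid hormone receptor gene *Thra*, which shares 263 of 3124 exonic bases and differed by -0.59 (standard error 0.20, limma adjusted p = 0.123). That of *Dbp* is the sphingosine kinase gene *Sphk2*, which shares 491 of 2945 exonic bases and differed by -0.44 (standard error 0.21, limma adjusted p = 0.222). Both neighbours had smaller differences than the clock genes beside them. *Tef* shares 193 of 7865 exonic bases with the long noncoding RNA gene *Gm17597*, also on the other strand. The part of such reads in the differences of these 3 genes was not tested.

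*Tef*, the other D-box activator, lies on chromosome 15 from 81632851 to 81657291. Its values were 0.65 and 0.45 after sham operation and -0.07 and 0.15 after injury. The groups did not overlap, but the difference of -0.51 (standard error 0.16) was not called (limma adjusted p = 0.109). It was -0.62 to -0.40 without each library in turn, a range narrower than those of the *Per* genes.

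Of the activators, *Arntl* alone showed no overlap between the groups. The gene lies on chromosome 7 from 120350979 to 120457636, and its values were -0.29 and -0.45 after sham operation and 0.24 and 0.29 after injury. Both pairs lay close together on either side of 0, with means of -0.37 ± 0.11 (SD, n = 2) and 0.27 ± 0.04 (SD, n = 2). The difference was 0.64 (standard error 0.14) and stood just outside the threshold (limma adjusted p = 0.0545), with a 95% confidence interval from limma of 0.29 to 0.99 before any adjustment. It was stable in size, at 0.56 to 0.72 without each library in turn, and its adjusted p-value was 0.0544 to 0.0873 in the fits to all libraries. *Arntl* was the clock gene closest to the threshold among those not called.

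*Clock*, on chromosome 5 from 76639992 to 76733817, encodes the partner that is least rhythmic in most tissues. Its values were 0.12 and 0.03 after sham operation and 0.003 and 0.20 after injury. All 4 libraries lay within 0.20 of each other and the groups overlapped. Injury exceeded sham by 0.02 (standard error 0.15, limma adjusted p = 0.925), with a 95% interval of -0.34 to 0.39.

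*Npas2*, which can replace *Clock*, lies on chromosome 1 from 39250576 to 39420079. It had the largest standard error of the 10 genes. Its values were 0.01 and -0.57 after sham operation and -0.44 and 0.65 after injury. Injury replicate 2 was the highest and sham replicate 2 the lowest, and the difference of 0.38 (standard error 0.40) was within that spread (limma adjusted p = 0.565). Without injury replicate 2 it turned to -0.16.

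The *Per* genes encode the repressors that ARNTL and its partners switch on, and all 3 had the same pattern over the libraries. *Per1* (chr11:68908719-68923462) had values of 0.41 and 0.39 after sham operation and of -0.30 and 0.31 after injury. *Per2* (chr1:93312561-93355907) had values of 0.83 and 0.67 and of -0.11 and 0.48. *Per3* (chr4:150377761-150418774) had values of 0.66 and 0.47 and of -0.28 and 0.29. In each, injury replicate 1 was far below the sham libraries and injury replicate 2 was closer to them but still below the lower one. The mean of the 3 genes was 0.63 and 0.51 in the sham libraries and -0.23 and 0.36 in the injury libraries. The differences were -0.39 for *Per1*, -0.57 for *Per2* and -0.56 for *Per3*, each with a standard error of 0.23, and none was called (limma adjusted p = 0.311, 0.170 and 0.170). Without injury replicate 1 they were -0.09, -0.27 and -0.27. Without injury replicate 2 they were -0.70, -0.86 and -0.85, and *Per2* and *Per3* were then called (limma adjusted p = 0.0361 and 0.0397), in a fit that called 1790 of all genes instead of 941.

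*Cry1*, whose product joins the PER proteins, lies on chromosome 10 from 84594447 to 84647799. Its values were 0.30 and -0.005 after sham operation and 0.38 and 0.36 after injury. The injury libraries agreed closely and lay just above sham replicate 1. The difference of 0.22 (standard error 0.16) was within the spread of the sham libraries (limma adjusted p = 0.404), and *Cry1* did not share the sign of the *Per* genes.

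**Figure D2:**
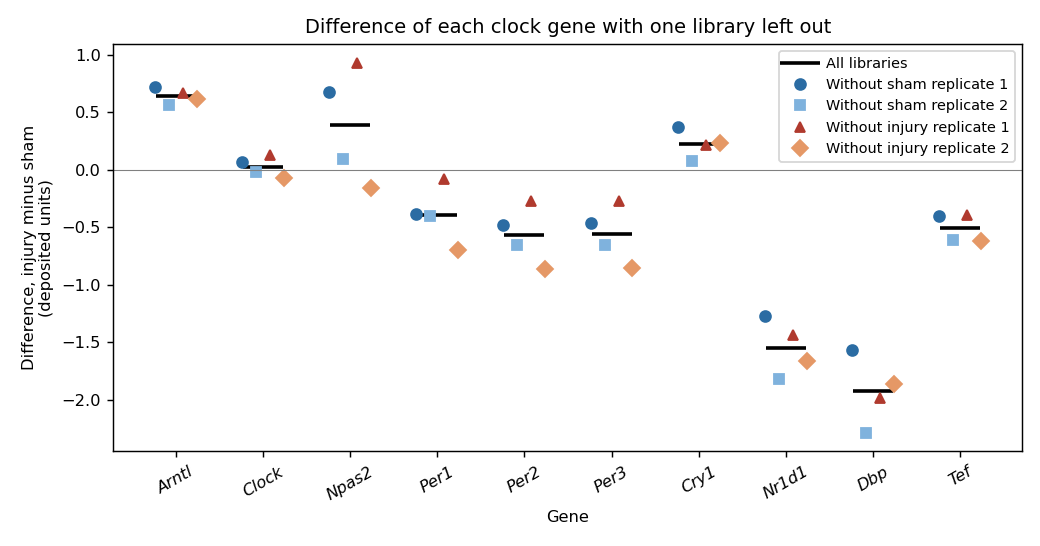
Difference between injury and sham (deposited units, vertical axis) for each of the 10 clock genes (horizontal axis) with all libraries (black bars) and without each library in turn (points). *Nr1d1* stayed between -1.82 and -1.28, *Dbp* between -2.29 and -1.56 and *Arntl* between 0.56 and 0.72, while *Npas2* and *Clock* crossed 0.

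The 10 genes also shifted together between libraries of the same group. Of the sham libraries, replicate 1 had the higher value in all 10, with a median step of 0.20. Of the injury libraries, replicate 2 had it in 8 of the 10 (not in *Cry1* and *Dbp*), with a median step of 0.22. These orders were found in 51.6% and 51.1% of all genes. The shift took in activators and repressors alike. A difference between genes within a library removes only a step that its genes share equally. The steps were not equal, since between the injury libraries they ran from -0.12 for *Dbp* to 1.09 for *Npas2*. The mean of *Arntl*, *Clock* and *Npas2* minus the mean of *Per1*, *Per2*, *Per3*, *Nr1d1*, *Dbp* and *Tef* was -0.94 and -0.91 in the sham libraries and 0.29 and 0.39 in the injury libraries. Libraries of a group agreed within 0.10, and the groups differed by 1.27. Between the injury libraries the mean of the activators rose from -0.07 to 0.38, mostly through *Npas2*. The mean subtracted from it rose from -0.36 to -0.01, so the agreement there rests in part on *Npas2*. The measure itself differed between the groups by 1.22 to 1.32 without each library in turn. *Cry1*, a repressor with a difference of 0.22 in the other direction, is not in it. With *Cry1* counted among the repressors, a choice made after seeing the data, the measure was -0.86 and -0.83 after sham operation and 0.19 and 0.34 after injury, and the groups differed by 1.10. *Arntl* minus *Nr1d1* was -1.74 and -1.35 after sham operation and 0.73 and 0.56 after injury. *Arntl* minus *Dbp* was -1.64 and -1.07 after sham operation and 1.13 and 1.30 after injury. Each such value restates the differences of its genes and depends on the unstated centre of each, so that its sign has no meaning of its own. *Nr1d1* minus *Dbp*, which compares genes on the same side of the loop, was 0.11 and 0.28 after sham operation and 0.40 and 0.74 after injury, a smaller change. No test is given for these measures, because the genes in them were named with results of these data known.

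**Figure D3:**
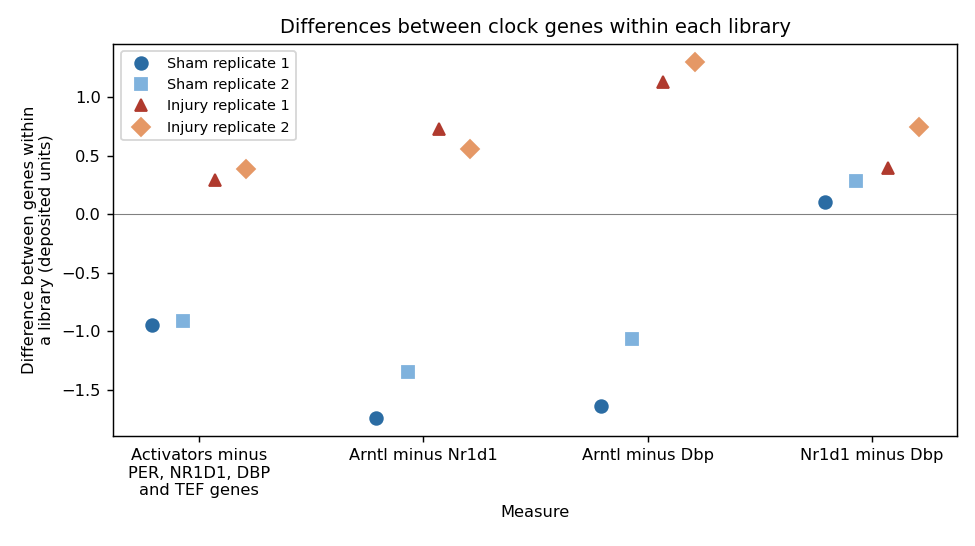
Difference between clock genes within each of the 4 libraries (deposited units, vertical axis) for 4 measures (horizontal axis), the leftmost being the mean of *Arntl*, *Clock* and *Npas2* minus the mean of *Per1*, *Per2*, *Per3*, *Nr1d1*, *Dbp* and *Tef*. The first 3 measures were below -0.9 in both sham libraries and above 0.2 in both injury libraries.

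In the daily order given above, the differences were -1.55 for *Nr1d1*, -1.93 for *Dbp*, -0.51 for *Tef*, -0.56 for *Per3*, -0.39 for *Per1*, -0.57 for *Per2*, 0.22 for *Cry1*, 0.38 for *Npas2* and 0.64 for *Arntl*. The genes that peak in the light phase and towards dusk were negative, with the lowest values in *Nr1d1* and *Dbp*, and those of the night and dawn were positive. The positive side rests on 3 genes, of which *Npas2* turned to -0.16 without injury replicate 2 and *Cry1* came to 0.07 without sham replicate 2. Of these values, only those of *Nr1d1* and *Dbp* passed the test. This order is a description, and whether hours of collection differed was not tested.

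Of 10 other core clock and loop genes listed, all but *Rorb* were measured, and 1 of these 9 was called, where 7.43% of all genes were called in either direction. *Nr1d2*, which encodes REV-ERBβ, the closest relative of the *Nr1d1* product, fell. Its values were 0.60 and 0.54 after sham operation and -0.42 and -0.24 after injury. Both groups were tight and far apart. The groups differed by -0.90 (standard error 0.14, limma adjusted p = 0.0323). It lost its call with a block for the replicate number (limma adjusted p = 0.0513) and without sham replicate 1 (0.202), sham replicate 2 (0.134) or injury replicate 1 (0.0734). The mean of *Nr1d1*, *Nr1d2* and *Dbp* was 1.13 and 0.69 after sham operation and -0.60 and -0.50 after injury.

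The other 8 of these genes were not called. Of the 9, 5 had both injury libraries below both sham libraries (30.3% of all genes) and 1 had both above (31.6% of all genes). *Hlf*, the remaining member of the family of *Dbp* and *Tef*, had values of 0.94 and 0.46 after sham operation and of 0.25 and 0.11 after injury (difference -0.51, limma adjusted p = 0.163). *Ciart*, a repressor of ARNTL and CLOCK, had values of 0.95 and 0.21 and of 0.03 and -0.14 (difference -0.63, limma adjusted p = 0.186). The injury libraries were lower in both genes, but sham replicate 1 set much of the size. Without it the differences were -0.27 and -0.26. *Nfil3*, which encodes the repressor at D-boxes and so acts against DBP, TEF and HLF, had values of -0.41 and -0.11 and of 0.06 and 0.50. Its difference of 0.54 was on the other side of 0 from theirs, and did not pass (limma adjusted p = 0.160). Without each library in turn it was 0.32 to 0.76. *Cry2* differed by -0.35 and *Bhlhe40*, a repressor at E-boxes, by -0.27 (-0.55 to -0.16 and -0.39 to -0.15 without each library in turn). *Rora*, an activator at ROREs, differed by -0.21 with overlap between the groups. *Arntl2* (-0.17, and -0.26 to -0.07 without each library in turn) and *Bhlhe41* (0.07) overlapped too. Adjusted p-values of these 5 genes from limma were 0.299 to 0.827.

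**Figure D4:**
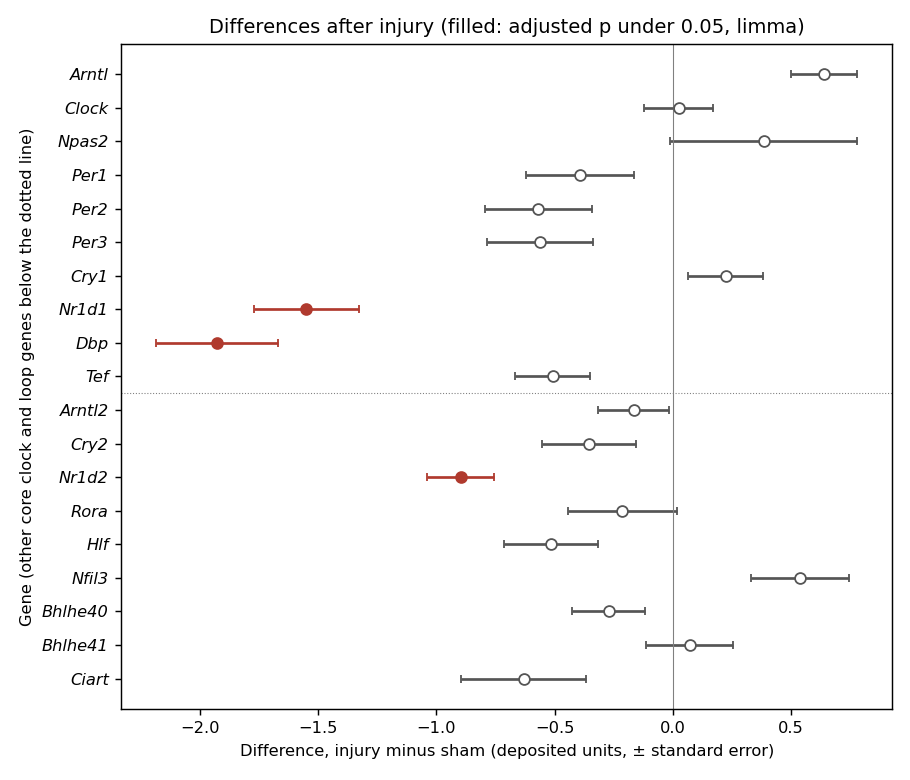
Difference between injury and sham (deposited units, horizontal axis) with its standard error from limma for the 10 clock genes and the 9 other core clock and loop genes (vertical axis). Filled points were called at an adjusted p-value under 0.05, namely *Nr1d1*, *Dbp* and *Nr1d2*, all below 0.

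Genes that modify or partner the clock proteins, such as the kinases that mark PER for degradation, differed by at most 0.47 in either direction. None of the 15 measured of 16 was called by limma, where 7.43% of all genes were called in either direction, and none had an unadjusted p-value under 0.05, as 3739 of the 12661 genes did. Their differences ran from -0.18 for *Nono*, which encodes an RNA-binding partner of PER, to 0.47 for *Usp2*, which encodes a deubiquitinase and is itself rhythmic, with a median of 0.01. *Usp2* had values of 0.38 and 0.39 after sham operation and of 0.47 and 1.24 after injury, so that injury replicate 2 set its size (limma adjusted p = 0.304).

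Among 14 genes that are rhythmic in many mouse organs, 2 fell and 2 rose, where 3.67% of all genes were called lower and 3.76% higher, with a median difference of 0.12. *Fmo2*, a flavin monooxygenase gene, had values of 1.45 and 1.53 after sham operation and of -0.94 and -0.26 after injury (difference -2.09, standard error 0.24, limma adjusted p = 0.0285). *Tspan4*, a tetraspanin gene, had values of 0.10 and 0.24 and of -0.60 and -0.60 (difference -0.78, limma adjusted p = 0.0378). *Cdkn1a*, which encodes the cell cycle inhibitor p21 and responds to damage as well as to the clock, had values of -0.82 and -0.49 and of 0.78 and 1.09 (difference 1.59, limma adjusted p = 0.0285). *Lonrf3* had values of -0.54 and -0.52 and of 0.55 and 0.44 (difference 1.03, limma adjusted p = 0.0291). In all 4 genes the groups were apart. The list did not share the order of the sham libraries seen in the 10 clock genes, since sham replicate 1 was above sham replicate 2 in 2 of its 14 genes, but in 13 of the 14 injury replicate 2 was above injury replicate 1. Of these calls, those of *Fmo2* and *Cdkn1a* were lost without sham replicate 1 (adjusted p = 0.176 for each from limma) and without sham replicate 2 (0.113 for each). *Lonrf3* was lost without sham replicate 1 (0.176), sham replicate 2 (0.120) and injury replicate 1 (0.0561). *Tspan4* was lost without these libraries too (0.191, 0.166 and 0.0850) and with the replicate block (0.0603).

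Markers of other cells differed between the same libraries, where 3.76% of all genes were called higher and 3.67% lower. Macrophage markers had a median difference of 1.28, with 6 of 12 called higher, and neutrophil markers one of 1.87, with 1 of 6 called higher. Smooth muscle markers had a median of -2.12 (4 of 7 called lower), fibroblast markers of -0.75 (4 of 8 lower), endothelial markers of -0.69 (2 of 9 lower), Schwann cell markers of -0.66 (2 of 7 lower) and skeletal muscle markers of -0.75 (0 of 6 called by limma, 3 with an unadjusted p-value under 0.05). Pan-adipocyte markers had a median of -0.14 with 1 of 12 called lower, while 7 of 10 brown adipocyte markers were called higher. The medians of the smooth muscle, fibroblast and Schwann cell lists had the same order of libraries as *Nr1d1*, *Nr1d2*, *Tef* and the *Per* genes, highest in sham replicate 1 and lowest in injury replicate 1, with smooth muscle medians of 1.72 and 1.03 after sham operation and of -1.39 and -0.16 after injury and medians in that order of 0.25, -0.03, -0.79 and -0.46 for fibroblasts and 0.23, 0.16, -0.80 and -0.28 for Schwann cells. The skeletal muscle medians (0.79 and -0.04 after sham operation, -0.32 and -0.40 after injury) had the order of *Dbp*, *Hlf*, *Ciart* and *Bhlhe40*, highest in sham replicate 1 and lowest in injury replicate 2. The part of all these markers in the differences of the clock genes was not tested.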

How the data were processed

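The authors prepared libraries with a stranded kit for polyadenylated RNA and sequenced paired ends. Per the labels, reads were checked with FastQC 0.11.8, cleared of adaptors with Cutadapt 1.18, trimmed with Trimmomatic 0.39, mapped to mm9 by STAR 2.6.0a and counted with featureCounts, and DESeq2 1.28.0 was used for differences. The deposited values are scores on a log-like scale (lowest -2.27, highest 6.45). How counts became these scores, the scale's base and the filter on genes are not given in the sources used here, so depth and counting error are unknown.

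Rows were matched by symbol. limma 3.58.1 (R 4.3.3) was fitted with group as the only term (2 residual and 3.48 prior degrees of freedom) and Benjamini-Hochberg adjustment over 12661 genes, and was tested on simulated data. An exact permutation test of 2 against 2 libraries cannot go below p = 0.333. Alternatives were a replicate block, each library left out, a robust prior, quantile normalization, equal spread of all columns, identical rows counted once and a threshold of 0.1. All members and listed core clock genes are named (1 further core clock gene is not reported here and is in none of the lists counted), and of the remaining clock lists the genes called or with the most extreme difference. Members and lists were chosen with earlier results of these data known. Gene positions are from GENCODE vM1 (NCBIM37). Tables were handled with pandas 2.3.3 and plots drawn with matplotlib 3.10.9.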

Additional observations from a re-analysis of the deposited data

How the results depend on the processing

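In the fits to all 4 libraries none of the 10 clock genes, the 9 other core genes, *Usp2*, *Nono*, *Tspan4*, *Cdkn1a*, *Lonrf3* and *Fmo2* changed direction, and *Nr1d1* and *Dbp* were called in each, with adjusted p-values from limma of 0.0221 to 0.0392 and 0.0235 to 0.0358. What the replicate numbers mark is not stated, and same-numbered libraries did not deviate together over all genes (r = -0.09 across genes). The fit with the replicate block called 684 genes, 303 of them lower, against 941 and 465 without it. With the block 3 of the other clock genes were called instead of 5. At an adjusted p-value under 0.1, 2317 genes were called, and *Arntl* joined the clock genes. With 1 library left out, the lone library of a group was assumed to vary like the other group, and fewer degrees of freedom remained. The number of genes called was then 0 without sham replicate 1, 1 without sham replicate 2, 284 without injury replicate 1 and 1790 without injury replicate 2, that of the 10 clock genes 0 to 4 and that of the other clock genes 0 to 6. Without sham replicate 1 no gene was called by limma, though 1960 genes, 3 of them among the 10, had an unadjusted p-value under 0.05. Directions turned with 1 library left out for *Clock* (-0.075 to 0.12, below 0 without sham replicate 2 at -0.02 and without injury replicate 2), *Npas2* (-0.16 without injury replicate 2, up to 0.93), *Rora* (0.10 without injury replicate 1, down to -0.53) and *Bhlhe41* (-0.14 without sham replicate 2, up to 0.29). The causes of these turns were not tested. With *Cry1* counted among the repressors the activators-minus-repressors measure was 1.10 instead of 1.27.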

Other observations

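Some genes known to be induced by glucocorticoid hormones, whose level in blood follows the hour of the day and stress, differed between replicates rather than between groups. *Zbtb16* had values of 0.03 and 1.27 deposited units after sham operation and of -0.01 and 1.29 after injury. *Fkbp5*, which encodes a cochaperone of the glucocorticoid receptor, had values of -0.88 and 0.40 and of -0.56 and 0.72. *Tsc22d3* had values of -0.29 and 0.32 and of -0.18 and 0.84. In each of these genes replicate 2 was above replicate 1 in both groups, while *Sgk1* (0.52 and 0.62 after sham operation, -0.17 and 0.38 after injury) had only a small step in the sham libraries. Over all 12661 genes, 4 had a step of more than 1 unit from replicate 1 to replicate 2 in both groups (*Actc1*, *Fkbp5*, *Serpina3m* and *Zbtb16*) and 4 had one of that size in the other direction. These genes were picked after their values were seen, and no test is given. The steps from replicate 1 to replicate 2 were -0.72 for *Dbp* and -0.55 for *Nr1d1* in the sham libraries and -0.12 and 0.22 in the injury libraries.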
